A study of Caenorhabditis elegans with 2 samples.

Results

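A set of 8 genes of DNA replication, psf-1, psf-2, psf-3, div-1, pri-1, pri-2, pole-1 and pole-2, was examined for EFL-1 at their starts, out of 19973 protein-coding genes on the nuclear chromosomes of C. elegans. They were chosen by name, as genes of the GINS complex, of primase with a subunit of its DNA polymerase, and of DNA polymerase epsilon. The set is partial: sld-5 of GINS and pole-4 of DNA polymerase epsilon are not in it and are given separately below. All 8 names matched a gene of the annotation. EFL-1, an E2F transcription factor of the worm, had been immunoprecipitated from whole hermaphrodite larvae of the wild-type strain N2 in the first larval stage (L1), grown at 26 °C, and the DNA sequenced (ChIP-seq). The data form 1 group of 2 biological replicates, so no conditions were compared, and all values below describe these libraries. Whole animals were used, so the cells in which the protein sat at a gene are unknown, and peak lists hold no expression values against which the labelled stage could be checked.

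Replication of DNA needs a helicase that opens the double helix, primers to start from, and polymerases that copy each strand. GINS, a ring of small subunits encoded by psf-1, psf-2, psf-3 and sld-5, joins the MCM proteins and CDC45 to form the active helicase. Primase, with a small catalytic subunit (pri-1) and a large one (pri-2), lays down RNA primers that DNA polymerase alpha extends; div-1 encodes the second subunit of that polymerase and pola-1 its catalytic one. DNA polymerase epsilon, with the catalytic subunit of pole-1 and the second subunit of pole-2, copies the leading strand. In animals, E2F factors bind the promoters of many such genes and, depending on their partners, hold them down in resting cells or switch them on before S phase.

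Sequences around EFL-1 summits are shown for psf-1, div-1 and pri-1, and for the peak nearest to pole-2. The last of these peaks lies upstream of the next gene, snrp-3. That of pola-1 is added because its product works in one complex with those of div-1, pri-1 and pri-2. The summit is the base where a peak is highest. The E2F consensus searched for was TTCCCGC or TTCGCGC, and also TTGCCGC or TTGGCGC, on both strands. Capitals mark the consensus and, elsewhere, its last 5 letters (CCCGC or CGCGC, and also GCCGC or GGCGC) on either strand. Each run reads 5′ to 3′ in the direction of the gene named and reaches up to 100 bp to each side of the summit, cut where a protein-coding gene begins. The bases are those of the RefSeq copy of assembly WBcel235, which is ce11. The runs are chrII:9968421-9968621 (+ strand) for psf-1, chrIII:10248560-10248736 (- strand) for div-1, chrIII:9614311-9614481 (- strand) for pri-1, chrIV:8687875-8688075 (- strand) for the peak upstream of pole-2 and chrIII:11142209-11142409 (+ strand) for pola-1.
psf-1: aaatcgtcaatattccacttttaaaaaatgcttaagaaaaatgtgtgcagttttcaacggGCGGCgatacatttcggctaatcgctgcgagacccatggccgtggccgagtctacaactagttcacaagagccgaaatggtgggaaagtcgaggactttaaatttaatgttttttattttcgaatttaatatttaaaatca
div-1: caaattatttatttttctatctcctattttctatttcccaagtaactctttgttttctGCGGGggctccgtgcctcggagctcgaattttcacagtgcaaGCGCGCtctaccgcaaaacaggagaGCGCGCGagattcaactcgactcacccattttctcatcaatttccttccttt
pri-1: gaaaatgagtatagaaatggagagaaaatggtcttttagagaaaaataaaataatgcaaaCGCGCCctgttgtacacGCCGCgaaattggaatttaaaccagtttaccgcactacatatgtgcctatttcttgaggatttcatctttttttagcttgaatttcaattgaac
pole-2: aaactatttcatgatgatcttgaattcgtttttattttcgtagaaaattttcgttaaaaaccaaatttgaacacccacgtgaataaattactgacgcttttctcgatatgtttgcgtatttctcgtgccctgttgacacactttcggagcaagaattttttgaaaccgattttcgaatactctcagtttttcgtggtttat
pola-1: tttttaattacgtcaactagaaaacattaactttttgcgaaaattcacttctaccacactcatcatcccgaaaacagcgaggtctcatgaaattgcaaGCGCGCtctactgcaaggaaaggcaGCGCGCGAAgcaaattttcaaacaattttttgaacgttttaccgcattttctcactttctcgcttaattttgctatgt

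The set of peaks thresholded by the irreproducible discovery rate (the IDR set), which the authors derived from each replicate's list and the pooled one, held 4835 peaks on ce11. The relaxed lists, which mix peaks and background, were longer: 28817 entries in replicate 1, 30000 in replicate 2, and 30000 with the reads of both pooled. The peak score is the authors' own, on a scale not stated, and served only to rank peaks within 1 list; it ran from 59.6 to 15978 in the IDR set, with a median of 179.8. No read numbers come with these lists, and sequencing depth is therefore unknown. A gene was called bound when an IDR summit fell in its promoter window, which reaches from 500 bp before the annotated start to 200 bp after it.

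EFL-1 was called at the starts of 7 of the 8 genes, all but pole-2. Of all protein-coding genes, 15.2% were called bound by the same rule. The 7 peaks had scores from 332.5 to 3027.2 with a median of 1165.2, beside a median of 325.3 for the best peaks of all 3027 bound genes. All 7 summits lay upstream of the gene start, by 77 to 288 bp with a median of 130 bp, beside 170 bp for all bound genes. For each of the 7, both replicates listed a summit no more than 100 bp away, which held for 97.6% of the whole IDR set. Among the 2417 higher-scoring peaks of the IDR set the count was again 7 of 8, where 10.4% of all genes were called. No test was made of the share of 8 genes picked by name, and the genes are not replicates of one another.

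**Figure D1:**
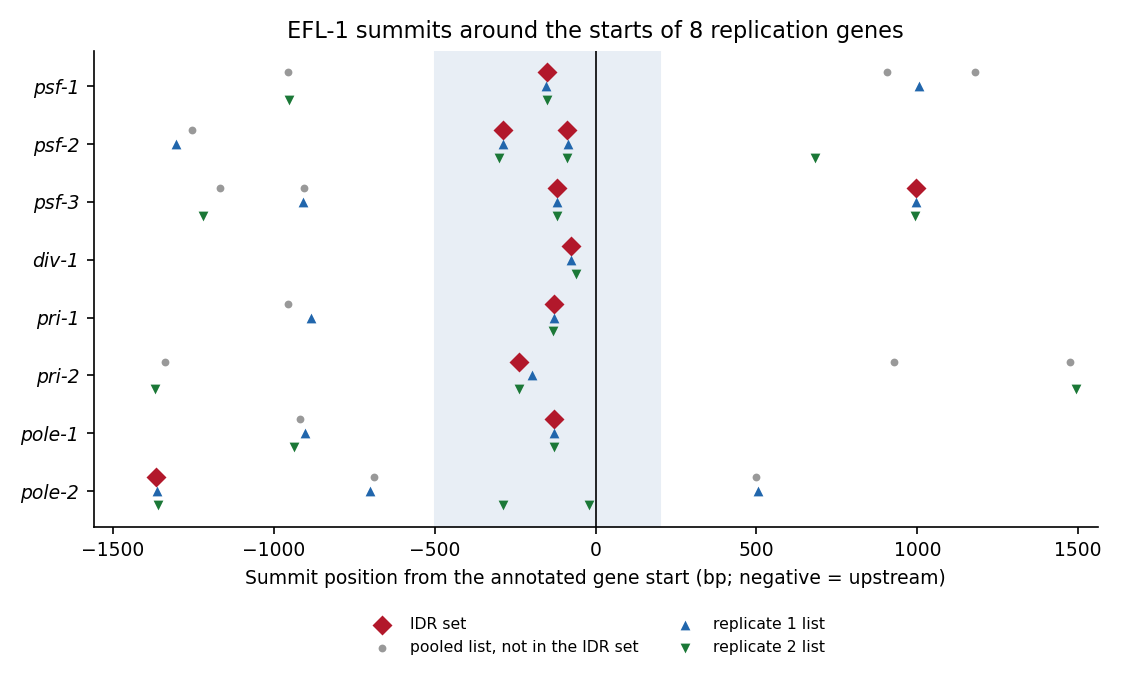
Positions of EFL-1 summits from the annotated start of each gene, in bp, within 1500 bp to each side, with diamonds for summits of the IDR set, grey dots for other summits of the pooled list, triangles for each replicate list and a shaded band for the promoter window. Of the 8 genes, 7 have an IDR summit between 288 and 77 bp upstream, psf-2 has a second one, and pole-2 has none in the band; the diamond at 995 bp beside psf-3 lies before icd-2.

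Among the GINS genes, psf-3 had the strongest peak and psf-2 the weakest. The peak at psf-3 (WBGene00022043, chrI:534158-534567) scored 2335 in the IDR set and ranked 219 of 4835. It scored 815.7 with rank 217 in replicate 1 and 1525.6 with rank 219 in replicate 2, so both replicates placed it alike. Its summit lay 120 bp upstream of the start in replicate 1 and 119 bp upstream in replicate 2, and no other protein-coding gene had the summit in its window.

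A second, higher peak lay beyond the other end of psf-3. It ranked 41 with a score of 5194.9, 995 bp past the start of psf-3, whose gene is 890 bp long. That summit lies before the next gene on the same strand, icd-2, which encodes the alpha subunit of the nascent polypeptide-associated complex. It lay outside the promoter window of psf-3 and did not count towards its call.

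The peak at psf-1 (WBGene00011275, chrII:9968370-9968665) scored 854.8 and ranked 671. In replicate 1 it scored 254.3 with rank 792, and in replicate 2 it scored 599 with rank 624. The summits of both replicates were 2 bp apart, 154 and 152 bp upstream of the start. The summit base is annotated as an exon of the non-coding RNA genes R53.9 and R53.11, which run on opposite strands there. The summit lay 21 bp past the start of R53.9 and 67 bp past that of R53.11, both nearer than the start of psf-1. It lay also 472 bp upstream of the divergent gene R53.4, a putative ATP synthase subunit f of mitochondria, so the peak cannot be given to psf-1 alone.

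The window of psf-2 (WBGene00009287) held 2 summits, both within the deposited interval chrI:15052595-15052994. The higher one, 288 bp upstream of the start, scored 332.5 and ranked 1531; the other, 88 bp upstream, scored 154.3 and ranked 2683. Of all bound genes, 1.19% had more than 1 IDR summit in the window. Replicate 1 had the higher summit at rank 1697 and the other at rank 4266, and replicate 2 at ranks 1432 and 2388, so both replicates held both summits in the same order. The higher summit lay 302 bp upstream of the divergent gene zipt-1, a zinc transporter gene of the ZIP family, and thus about as far from one start as from the other.

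The fourth GINS gene, sld-5, had no summit in its promoter window in the IDR set or in the pooled list. The nearest IDR summit lay 12142 bp upstream, in the window of swsn-1, and the nearest summit of the pooled list 2701 bp upstream with a score of 12.1. In all, 3 of the 4 GINS genes were called bound.

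All 4 genes of the DNA polymerase alpha-primase complex were called bound, with scores from 999.2 to 3027.2. The highest was at pri-2 (WBGene00004181, chrI:12532004-12532624), the gene of the large primase subunit, which scored 3027.2 and ranked 142. Replicate 1 placed it at rank 141 with a score of 1075.5 and replicate 2 at rank 149 with a score of 1935.7. Its interval of 621 bp was the widest of the 7, against a median of 319 bp for all bound genes. The summits of the replicates lay 41 bp apart, at 198 bp upstream of the start in replicate 1 and 239 bp in replicate 2, the largest such distance among the 7 genes. For comparison, this distance had a median of 12 bp and an upper quartile of 29 bp over the 4718 IDR peaks found in each replicate. The IDR summit was also 368 bp upstream of W02D9.2, a divergent gene annotated as encoding a YIPF protein.

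The peak at pri-1 (WBGene00004180, chrIII:9614265-9614570), the gene of the catalytic primase subunit, scored 999.2 and ranked 579. Its ranks were 629 in replicate 1 and 566 in replicate 2, with scores of 326.6 and 671 and summits 4 bp apart. The starts of pri-1 and the divergent gene F58A4.6 are only 201 bp apart, and the summit lay 130 bp upstream of pri-1 and 71 bp upstream of F58A4.6. When each summit was given only to the nearest start within 2000 bp, this peak went to F58A4.6 and 6 of the 8 genes were called bound. The share of all genes called by that rule is not given here, so this count has no background beside it.

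The peak at div-1 (WBGene00001002, chrIII:10248422-10248806) scored 1165.2 and ranked 501. Replicate 1 had it at rank 569 with a score of 362.5, and replicate 2 at rank 468 with a score of 808.4. With a summit 77 bp upstream, it lay closest to its gene start among the 7. The divergent gene cor-1, which encodes the actin-binding protein coronin, starts 552 bp away from div-1, and the summit lay 475 bp upstream of it. The peak of pola-1, the catalytic partner of div-1, scored 2207.6, ranked 234 and had its summit 139 bp upstream.

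For DNA polymerase epsilon, the lists held a strong peak at pole-1 and none at pole-2. The peak at pole-1 (WBGene00009368, chrI:15013816-15014220) scored 2453.5 and ranked 202, with rank 198 and a score of 865.4 in replicate 1 and rank 207 and 1596.7 in replicate 2. The summit was at the same base in both replicates, 130 bp upstream of the start, and in the window of no other protein-coding gene.

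At pole-2 (WBGene00017237, chrIV:8682240-8686610), the window held no summit in the IDR set, in the pooled list or in the list of replicate 1. Replicate 2 alone had a pair of relaxed summits there, 19 bp upstream with a score of 8.5 and rank 18549 and 287 bp upstream with 6.4 and rank 25372, both below the median of its list (10.3). Inside the gene the pooled list had a summit 498 bp past the start with a score of 25.4 and rank 9357. This was above the median of that list (16.7) and below the lowest score of the IDR set (59.6). Replicate 1 had a summit 504 bp past the start with a score of 17.4, beside a median of 9.4 for its list.

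The start of pole-2 lies 145 bp downstream of the end of snrp-3, on the same strand. The peak that is shown for pole-2 above lay 1365 bp upstream of its start and 165 bp upstream of that of snrp-3, which encodes a protein annotated as U1 small nuclear ribonucleoprotein C. It scored 2683.5 and ranked 177, with rank 142 in replicate 1 and 200 in replicate 2. Closely spaced genes of one strand are often transcribed together in the worm as an operon, whose promoter lies before the first gene; whether pole-2 and snrp-3 share a transcript was not tested. Of genes that follow a same-strand gene at 500 bp or less, 404 of 3618 (11.2%) were called bound, against 2623 of the 16355 other genes (16%). None of the other 7 genes begins so close to a gene upstream of it. A further subunit gene of this polymerase, pole-4, named after its value was seen, was bound with a score of 592.1 and rank 941. That peak also lay in the promoter windows of metl-2 and nsun-5.

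The order of the 7 peaks by score was the same in the IDR set and in both replicates. It ran from pri-2 through pole-1, psf-3, div-1, pri-1 and psf-1 to psf-2. Neighbours in that order were close in most cases: within a replicate, the score of pole-1 was 1.06 times that of psf-3 in replicate 1 and 1.05 times in replicate 2. The wider steps were those between psf-3 and div-1, with ratios of 2.25 in replicate 1 and 1.89 in replicate 2, and between psf-1 and psf-2, with 2.55 in each. With 2 replicates no test of these differences was made. Taking as many top peaks of 1 replicate as the IDR set holds, 7 of the 8 genes were called from replicate 1, where 14.8% of all genes were called, and 7 from replicate 2, with 15.3% of all. With any summit of the relaxed pooled list the count was still 7, although 32.7% of all genes were then called.

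**Figure D2:**
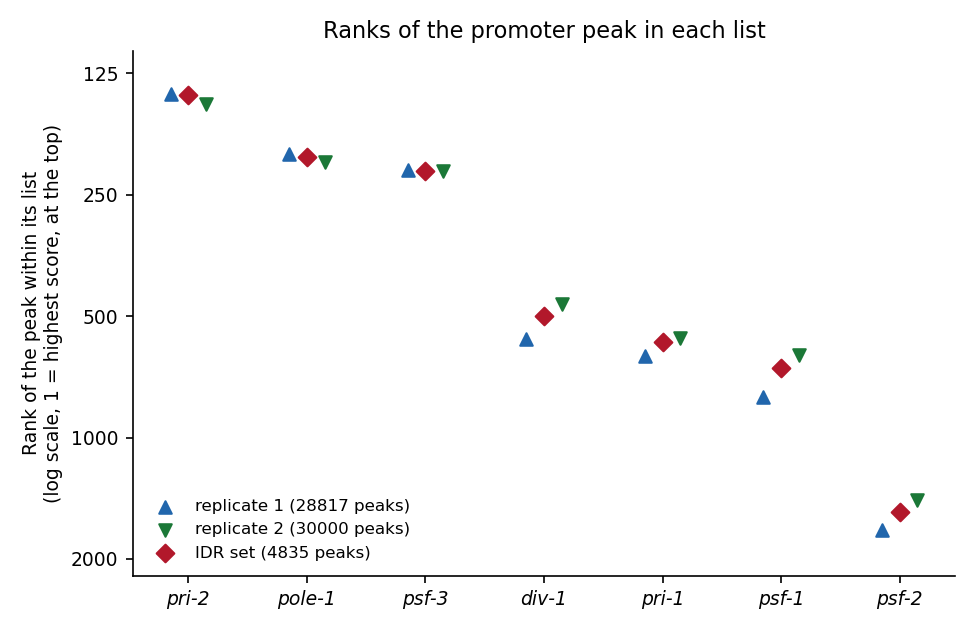
Rank of the promoter peak of each of the 7 bound genes, on a log axis with the highest score at the top, in the list of replicate 1 (upward triangles), that of replicate 2 (downward triangles) and the IDR set (diamonds). The order of the genes is the same in all, from pri-2 (ranks 141, 149 and 142) to psf-2 (ranks 1697, 1432 and 1531); lists differ in length.

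All 7 peaks scored above the median of bound genes, psf-2 by a small margin. Of all bound genes, 5.32% had a higher-scoring peak than pri-2, 7.63% than pole-1, 8.23% than psf-3, 19% than div-1, 21.8% than pri-1 and 24.9% than psf-1. For psf-2 the share was 49.3%. No IDR summit lay inside the body of any of the 8 genes outside the promoter window, and the relaxed summits of the pooled list there scored at most 25.4.

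**Figure D3:**
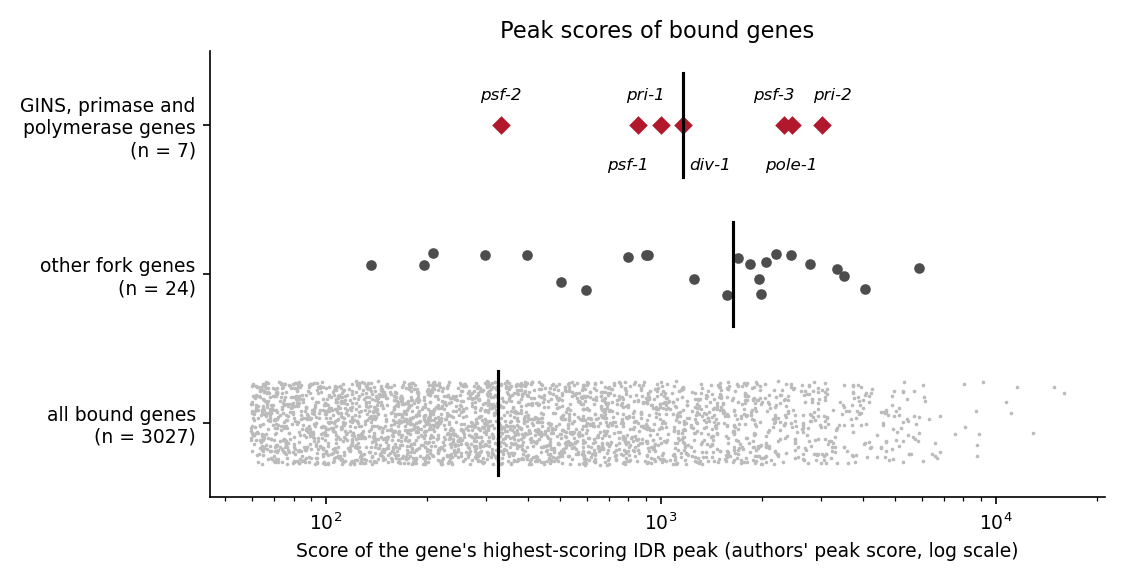
Score of the highest-scoring IDR peak in the promoter window, on a log axis, for the 7 bound GINS, primase and polymerase genes (diamonds), 24 other bound genes of the replication fork (dark dots) and all 3027 bound genes (grey dots, spread vertically for visibility). Vertical bars are medians, at 1165.2, 1636.8 and 325.3; both sets of replication genes lie mostly to the right of the median of all bound genes.

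Most other genes of the replication fork were called bound too. A list of 33 entries matched 27 genes, since cdc-45, pold-3 and pold-4 matched no gene name and some entries were other names of the same gene. The gene of CDC45 was among the 27 under its other name, evl-18, and was bound with a score of 208 and rank 2164. Of the 27, 24 (88.9%) were bound, with a median score of 1636.8, and all 7 scores of the genes above fell within their range of 135.9 to 5892.4. The highest were at clsp-1, the gene of the checkpoint mediator claspin (5892.4), at pcn-1, that of the sliding clamp (4068.6), and at tim-1, the timeless homologue (3531.3). Nearest in rank to pole-1 was mcm-7 at 204, which encodes a subunit of the MCM helicase. For psf-3, mcm-7 and pola-1 at 234 were equally near. Next to div-1 stood mcm-2 at rank 469, next to psf-1 mcm-3 at 640, and next to pri-1 rfc-1 at 630, the gene of the large subunit of the clamp loader. The nearest to pri-2 was ctf-4 at rank 168, whose yeast counterpart links polymerase alpha to the helicase, and to psf-2 rfc-2 at 1664. These likenesses are of rank in 1 list only. Some of these peaks also lay in the promoter window of another gene, that of clsp-1 with eef-2, tim-1 with Y75B8A.23, ctf-4 with eef-1G, mcm-3 with C25D7.15 and pola-1 with Y47D3A.1, so their scores cannot be given to the fork gene alone.

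All 6 genes of the MCM2 to MCM7 helicase and both genes of DNA polymerase delta, pold-1 (score 1994.7) and pold-2 (135.9), were bound. The peak of pold-1 also lay in the promoter window of kup-1. The 3 unbound genes of the list were sld-5, rfc-3 and rpa-2, which encodes a subunit of the single-strand binding protein RPA. An IDR summit with a score of 234.6 lay 742 bp upstream of rpa-2, outside the promoter window. The clamp loader gene rfc-3 starts 271 bp after the end of C39E9.12 on its strand, and the nearest IDR summit, 1896 bp upstream with a score of 1807.7, fell in the windows of C39E9.12 and prcc-1. Among the 5 genes of the list that start within 500 bp of a gene upstream, 4 were bound (crn-1, mcm-4, mcm-5 and pold-2), beside 11.2% of all genes so placed. At crn-1 the summit lay 440 bp upstream of the start, farther than the 281 bp gap to the gene before it, and outside the window of 300 bp. Whether such a position bears on binding was not tested.

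Of the 7 bound genes 3, psf-3, pri-2 and pole-1, held the E2F consensus within 100 bp of the summit. Among all IDR peaks 17.5% did, among those in promoter windows 19.8%, and among peaks of the pooled list below the IDR set 8.01%; in the 701 bp promoter windows of all protein-coding genes the share was 19.5%. At pri-2 there were 2 matches, centred 54 and 43 bp from the summit on the side away from the gene. At pole-1 the match lay 33 bp and at psf-3 15 bp from the summit towards the gene. Over all IDR peaks with a match, the median distance of the nearest one was 29 bp. All 4 matches pointed against the direction of the gene. Farther than 100 bp from the summit, the consensus occurred also in the windows of div-1, 221 bp upstream of the start, and of pri-2, 60 bp upstream. It occurred nowhere in the windows of psf-1, psf-2, pri-1 and pole-2.

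The 3 genes with the consensus near the summit had scores from 2335 to 3027.2, and the 4 without it from 332.5 to 1165.2, so the 2 sets did not overlap. Of the other 24 bound fork genes, 20 held it near the summit; their median score was 1414.1, against 1880.2 for the 4 without, the other way round. The ranges of these fork genes overlapped, from 135.9 to 5892.4 with the consensus and from 398.1 to 3351.1 without. Among all promoter peaks the median was 568.6 for the 475 with it and 248.4 for the 1926 without. There too the ranges overlapped, from 60.3 to 14938.9 and from 59.7 to 15977.6. Scores and consensus thus had no common direction among replication genes, and no test was made. The 4 fork genes without the consensus, rfc-4, tipn-1, dna-2 and lig-1, each shared their peak with another gene. So did psf-1, psf-2, div-1 and pri-1, and some of the genes with it. Such scores cannot be given to the replication gene alone.

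With the last 5 letters of the consensus alone, a search added after the data were seen, all 7 bound genes had a match within 100 bp of the summit, as the capitals in the sequences above show for psf-1, div-1 and pri-1. These short words are common: 67.2% of all IDR peaks, 72.3% of those in promoter windows and 32.9% of peaks below the IDR set held one. At div-1 there were 6 matches, some overlapping, and at pri-1 3. The peak upstream of snrp-3 held none, and no consensus either.

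**Figure D4:**
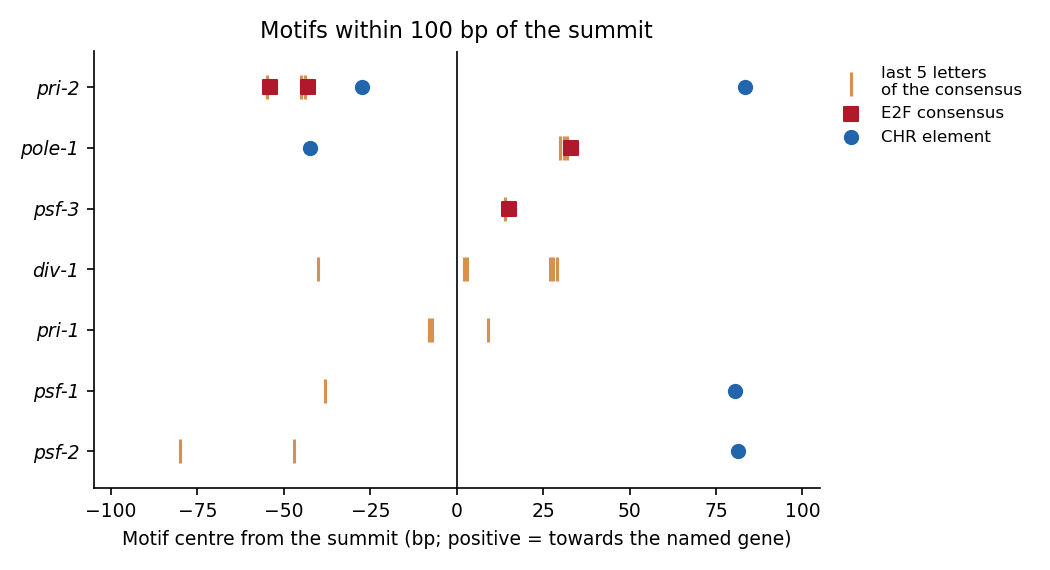
Positions of the E2F consensus (squares), its last 5 letters (vertical ticks) and the CHR element (circles) within 100 bp of the summit of the 7 bound genes, in bp from the summit; positive values lie towards the named gene. Genes are ordered by score: the upper 3 (pri-2, pole-1 and psf-3) have squares and the lower 4 have none.

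The cell cycle genes homology region (CHR), TTTGAA or TTCGAA, which other subunits of the DREAM complex of E2F and MuvB proteins bind, was matched near the summits of 4 of the 7 genes, psf-1, psf-2, pri-2 and pole-1. That is close to its share of 52.4% among IDR peaks in promoter windows and 53.8% among peaks below the IDR set, and 92.4% of all promoter windows held it somewhere. At pri-2 a CHR match lay between the summit and the E2F matches, 27.5 bp from the summit.

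The peaks of div-1 and pola-1, whose proteins form 1 polymerase, shared an unbroken run of 16 bases, noticed after the sequences were seen. It reads tgcaagcgcgctctac in the direction of both genes, and its centre lay 2.5 bp from the summit at div-1 and 0.5 bp at pola-1. Among the 28 pairs of the 7 bound genes and pola-1 this was the longest shared run; the second longest had 12 bases and the shortest 8. The run occurred near 5 of all 4835 IDR summits (0.103%), all 5 in promoter windows, and near 2 of 25165 summits of the pooled list below the IDR set. The 5 include the summits of div-1 and pola-1, from which the run was taken, so the IDR count is raised by its construction. The genes at the remaining summits with the run are not named here, and the pairs left out the other bound fork genes. Whether the run bears on the shared complex was not tested. Both sequences also hold GCGCGCG farther towards the gene, which at pola-1 overlaps a consensus match.

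Of the 7 bound genes, 5 shared their peak with a divergent gene: psf-1 with R53.4, psf-2 with zipt-1, div-1 with cor-1, pri-1 with F58A4.6 and pri-2 with W02D9.2. Of all bound genes, 41.8% had a best peak that lay in promoter windows on both strands. Only pole-1 and psf-3 had a peak in no other protein-coding window. In 6 of the 7 the start of the gene described was the nearest protein-coding start to the summit, and in pri-1 it was that of F58A4.6. The lists do not show on which of the 2 genes of such a pair EFL-1 acts.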

How the data were processed

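The deposited files are peak lists of EFL-1 ChIP-seq from 2 biological replicates of N2 L1 larvae, on ce10 and ce11. Per the labels, the size range was 150 to 350 bp. Per the notes deposited by the authors, a relaxed list comes from 1 replicate, or from both pooled, and the IDR set from these lists. Aligner and peak caller were not given in the sources used here. Every peak has a score deposited by the authors, scale not stated, and a −log10 q deposited by the authors, which was at 4.04 throughout the IDR set and was not used. Summit offsets, deposited by the authors as bp from the peak start, gave the positions. The IDR set was the same as the top of the pooled list. Signal tracks were not used here.

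Gene models were those of Ensembl release 115 (WBcel235, which is ce11), and coordinates are 1-based; ce10 lists were counted only (4865 peaks in the IDR set). Summits were assigned with Python 3.11.15 and pandas 2.3.3, tested on simulated data. Replicate summits were matched within 100 bp. The genes and lists were chosen with earlier results of these data known. Genes named are all 8, their neighbours at a peak, and of the other fork genes the 3 highest-scoring, the unbound, and the nearest in rank. Other names were chosen after values were seen. Alternatives changed the window, threshold, replicate, start and motif window. The replicates come from separate biosamples.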

Additional observations from a re-analysis of the deposited data

How the results depend on the processing

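The count of 7 bound genes of 8 was the same with a window of 300 bp upstream to 100 bp downstream, with one of 1000 bp upstream to 500 bp downstream, with a higher threshold, with any pooled summit, without replicate 1, without replicate 2, and with the starts of all annotated transcripts. With RefSeq starts, added after the data were seen and identical for all 8 genes, it was also 7. With the nearest start only it was 6. Shares of all genes are not given for the other windows, the transcript starts, the RefSeq starts or the nearest start. A wider window can only add calls, so an unchanged count there has no background to be read against. For the 24 bound fork genes the range over the alternatives was 22 to 25. The count of 3 genes with the E2F consensus was 3 with 50 bp to each side and for the summit of either replicate alone. It was 4 with 200 bp or the whole peak, where div-1 was added, and 7 with the last 5 letters only, which shorter words bring about by their construction. Shares of all IDR peaks with the consensus are given for 100 bp only. A longer stretch can only add matches, so the 4 cannot be set beside those shares. All 7 peaks were matched in both replicates also at 50 and 200 bp. No paired analysis was possible because the series has 1 group. All 48 ranks under alternatives stayed within 1.5 times the main rank. With other windows, other starts and the pooled list the same peak was kept with the same rank, and only ranks from 1 replicate alone differed. The lost call of pri-1 with the nearest start only has no rank and is not among the 48. Depth is unknown, so weak binding at pole-2 or sld-5 may be below what these lists can show.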
